A study of Mus musculus with 10 samples.

Results

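Described here are 10 mouse genes that read out WNT signalling or carry it into the nucleus: Axin2, Lef1, Apcdd1, Lgr5, Sp5, Nkd1, Cdx1, Tcf7, Tcf7l1 and Tcf7l2. Their members on the array are all probe sets whose gene symbol in the array annotation is exactly one of these names, a rule that uses no measured value. That gave 24 of 45101 probe sets, and they covered 9 of the 10 genes. Tcf7 was not analysed here, since the annotation used here pairs no probe set with that symbol. Apcdd1 had 6 probe sets, Nkd1 and Tcf7l2 had 4 each, Axin2, Lef1, Lgr5 and Tcf7l1 had 2 each, and Sp5 and Cdx1 had 1 each.

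RNA was measured on Affymetrix GeneChip mouse arrays in 3 groups of sorted mouse cells, 10 arrays in all. AG-haESC are haploid stem cells from androgenetic blastocysts, whose genome is of paternal origin alone, and 5 lines of C57BL/6J genotype were measured at passage 12 to 15, each on 1 array. An Oct4-EGFP transgene was carried by 4 of these lines (here AG-haESC replicates 1, 2, 4 and 5) and an Actin-EGFP transgene by the fifth (AG-haESC replicate 3). E14, a male diploid wild-type stem cell line of 129/Sv genotype, was measured on 3 arrays at passage 17. MEF, wild-type fibroblasts of B6D2F1 genotype from a male d13.5 embryo, were measured on 2 arrays at passage 2. The DNA dye Hoechst 33342, at 15 µg/ml, was used to sort all cells, for the haploid peak in AG-haESC and for the diploid peak in E14 and MEF. AG-haESC were grown on feeder cells with the GSK3 inhibitor CHIR99021 and the MEK inhibitor PD0325901, and the sources used here do not give the medium of E14 and MEF. Ploidy, parental origin, strain, transgene, passage, the sorted peak and possibly medium all differ between AG-haESC and E14 and cannot be told apart. The 3 E14 arrays are of the same line, so p-values against E14 hold no spread between diploid lines, and the labels call the E14 and MEF arrays biological replicates without saying whether they came from separate cultures or embryos.

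WNT ligands bind Frizzled and LRP receptors and thereby stop the destruction complex, in which the kinase GSK3 marks beta-catenin for degradation. Stabilised beta-catenin enters the nucleus, binds TCF/LEF proteins and turns their target genes on, among them inhibitors that close the pathway again. In mouse embryonic stem cells TCF7L1 acts mainly as a repressor of pluripotency genes, and GSK3 inhibition relieves that repression. AXIN2, NKD1 and APCDD1 are feedback inhibitors, LGR5 is a receptor for R-spondins, and SP5 and CDX1 are transcription factors downstream of the pathway. LEF1, TCF7, TCF7L1 and TCF7L2 are the TCF/LEF proteins themselves, and Lef1 is also a WNT target gene.

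The core that TCF/LEF proteins recognise was searched in RefSeq promoter windows (mouse build GRCm38.p6, 250 bases before to 50 bases after a gene's start), as CTTTGA or CTTTGT on either strand, read as TCAAAG or ACAAAG in the printed strand. No 2 printed matches overlap. Windows of 7 of the 10 genes were searched, 12 windows in all, and no window of Lgr5, Cdx1 or Apcdd1 was among them. Of the 12, 4 held a match, against 31.2% of 32851 windows over all genes. These 32851 windows were not restricted in the way the member windows were. Sp5 held 5 matches in its single window, 4 of them before the start, and 0.0365% of all windows held at least 5. Of the 4 Lef1 windows only the fourth, at a start inside the gene, held matches, 3 in number, and 1.14% of all windows held at least 3. The single Axin2 window held none, but it begins at base 108920099, inside a gene that runs from base 108917828. The bases before the first base of Axin2 were thus not searched. The single Nkd1 window likewise lies inside its gene. The 250 bases before the start are shown for these cases because Axin2 and Lef1 are the targets most often used to read the pathway. Sp5 and the inner Lef1 start are, of the windows used, those with the most matches. All lie on the plus strand and run 5′ to 3′, with matches in capitals.
Sp5, chr2:70474673-70474922: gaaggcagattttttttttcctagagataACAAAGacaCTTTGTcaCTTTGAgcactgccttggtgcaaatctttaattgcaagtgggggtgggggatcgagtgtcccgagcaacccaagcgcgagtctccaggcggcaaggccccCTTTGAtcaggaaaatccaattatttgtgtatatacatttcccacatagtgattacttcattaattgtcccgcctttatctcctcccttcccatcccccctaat
Lef1, first start, chr3:131110047-131110296: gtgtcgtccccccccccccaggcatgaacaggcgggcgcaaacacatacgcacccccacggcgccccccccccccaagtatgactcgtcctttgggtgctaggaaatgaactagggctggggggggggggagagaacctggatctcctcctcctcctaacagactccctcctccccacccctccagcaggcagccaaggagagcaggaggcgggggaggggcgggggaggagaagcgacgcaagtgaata
Lef1, inner start, chr3:131156044-131156293: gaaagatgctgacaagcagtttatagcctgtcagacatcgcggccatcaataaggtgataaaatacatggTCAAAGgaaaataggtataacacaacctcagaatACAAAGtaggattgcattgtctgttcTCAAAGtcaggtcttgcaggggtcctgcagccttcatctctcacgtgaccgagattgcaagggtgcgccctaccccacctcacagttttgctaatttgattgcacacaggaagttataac
Axin2, chr11:108920099-108920348: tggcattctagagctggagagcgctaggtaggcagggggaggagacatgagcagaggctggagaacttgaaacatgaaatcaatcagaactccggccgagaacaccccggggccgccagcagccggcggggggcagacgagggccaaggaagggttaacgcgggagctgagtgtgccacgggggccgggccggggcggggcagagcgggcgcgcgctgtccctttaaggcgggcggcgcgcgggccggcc
A match is a run of letters and not a measured binding site, and the array does not tell which start was used.

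Values are MAS5 signals taken to log2. Kept were probe sets above the median signal of their array on 2 or more arrays, and 20 of the 24 members were kept. The others, 1 each of Axin2, Apcdd1, Lgr5 and Tcf7l2, lay below the median in every array. A gene is represented by its brightest kept probe set, and 13251 genes were tested. A call needs a limma adjusted p below 0.05 and a 2-fold or larger difference. Array medians lay between 5.81 and 6.09 on the log2 scale. Where a group lay below the medians on all of its arrays, its fold change is a lower bound ("at least"), with that group put at the array medians. In bulk samples fewer cells of a type and less RNA per cell cannot be told apart. The 8 markers of pluripotent stem cells lay above the median in every AG-haESC and E14 array, and 1 of the 8 did so in the MEF arrays. All 11 fibroblast markers lay above it in both MEF arrays.

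The first comparison asks how the haploid lines differ from the diploid stem cell line. Lef1 was lower in AG-haESC than in E14, 2.90-fold, while Apcdd1 was higher, 3.18-fold, and Tcf7l2 was higher, 2.01-fold. Axin2, Lgr5, Sp5, Nkd1 and Cdx1 were not called, and Tcf7l1 passed the adjusted p with a difference below 2-fold. Of the 9 genes 2 were thus higher and 1 was lower, where 8.32% of all genes were called, 4.58% higher and 3.74% lower (15.9% by the adjusted p alone). The median difference of the 9 genes was -0.75, against -0.082 over all genes, so that the median and the balance of calls differ in sign. The arrays of both groups did not overlap for 4 of the 9 genes (Lef1, Apcdd1, Tcf7l1 and Tcf7l2), against 22.6% of all genes. The split was 3 higher and 1 lower, with 9.87% and 12.8% of all genes.

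**Figure D1:**
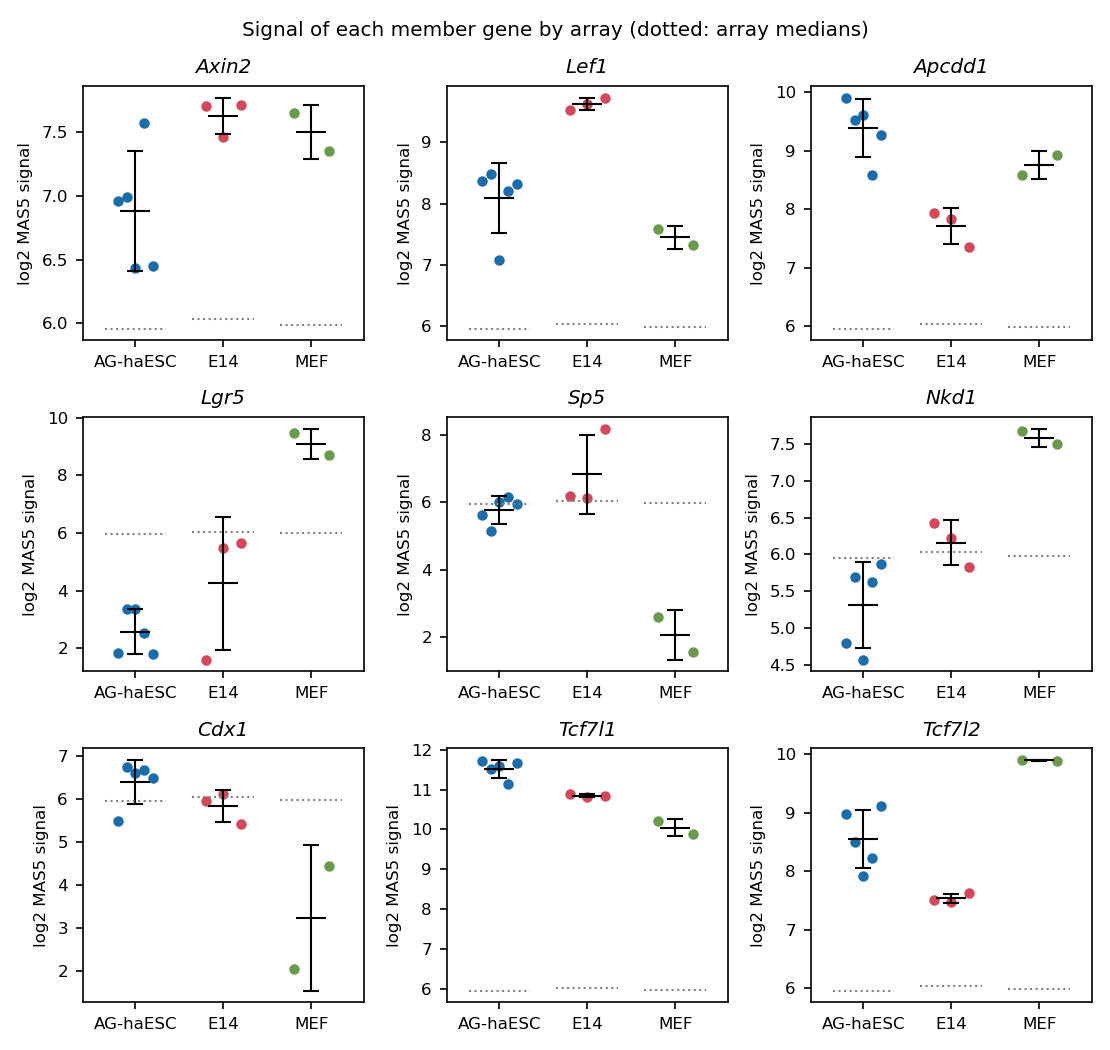
Log2 MAS5 signal of the 9 member genes (vertical axis, its range set for each gene) in AG-haESC, E14 and MEF, with 1 point per array. Black bars give mean ± SD (n = 5, 3 and 2) and dotted lines the mean array median of each group. The E14 arrays lie above every AG-haESC array for Lef1 and below every one for Apcdd1, Tcf7l1 and Tcf7l2, and Lgr5 lies above the dotted line in MEF alone.

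Among the TCF/LEF genes, Lef1 read 8.37, 8.48, 7.09, 8.20 and 8.33 in AG-haESC replicates 1 to 5, 9.53, 9.62 and 9.73 in E14 and 7.59 and 7.32 in MEF. Every E14 array lay above every AG-haESC array, and the Actin-EGFP line (replicate 3) lay below the MEF arrays. The means were 8.09 ± 0.57 in AG-haESC and 9.63 ± 0.10 in E14 (SD, n = 5 and 3), a difference of -1.53 ± 0.29 (SE, limma adjusted p = 0.00484). Without AG-haESC replicate 3 it was -1.28, still called.

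Tcf7l2 read 8.98, 8.51, 7.92, 8.23 and 9.11 in AG-haESC, 7.52, 7.48 and 7.63 in E14 and 9.91 and 9.89 in MEF. The groups followed each other without overlap, E14 lowest and MEF highest. AG-haESC stood at 8.55 ± 0.50 and E14 at 7.54 ± 0.077, a difference of 1.01 ± 0.26 (limma adjusted p = 0.0229). This difference lies just past 2-fold. Leaving out a single array ended the call in 4 cases (E14 replicate 1, E14 replicate 2, AG-haESC replicate 1 and AG-haESC replicate 5), with differences between 0.87 and 0.99, and so did a pseudocount (0.90) and the mean of probe sets (0.83).

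Tcf7l1 read 11.71, 11.53, 11.58, 11.13 and 11.66 in AG-haESC, 10.90, 10.80 and 10.85 in E14 and 10.20 and 9.89 in MEF. Here the order was AG-haESC, E14, MEF, again with no overlap. The difference between AG-haESC and E14 was 0.67 ± 0.14 (limma adjusted p = 0.00961), a 1.60-fold difference that is below the threshold for a call. For 6 pluripotency genes that TCF7L1 is known to repress in stem cells (Esrrb, Klf2, Nanog, Tfcp2l1, Nr0b1 and Nr5a2) 0 were called in this comparison by limma. Of the 6, Nanog and Tfcp2l1 had an unadjusted p under 0.05, and 1 of the 6 was called under 5 other settings and without E14 replicate 3, MEF replicate 1 or MEF replicate 2. Tfcp2l1, a naive-state factor, was at 11.68 ± 0.17 against 10.54 ± 0.43, a difference of 1.14 ± 0.39 (limma adjusted p = 0.0732). Nanog was higher by 0.87 ± 0.12 and passed the adjusted p (0.00075) without reaching 2-fold, while Esrrb differed by 0.098 ± 0.17.

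Of the feedback inhibitors, Apcdd1, which blocks the pathway at the cell surface, read 9.91, 9.52, 9.62, 8.59 and 9.28 in AG-haESC, 7.95, 7.84 and 7.36 in E14 and 8.58 and 8.93 in MEF. All haploid lines lay above all E14 arrays, and 4 of the 5 lay above both MEF arrays. The means were 9.39 ± 0.50 and 7.72 ± 0.31, a difference of 1.67 ± 0.28 (limma adjusted p = 0.00231), which stayed called without any 1 array and ranged from 1.49 to 1.87.

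Axin2, the scaffold of the destruction complex most widely used as a WNT readout, read 6.96, 6.99, 6.43, 7.57 and 6.45 in AG-haESC, 7.71, 7.46 and 7.72 in E14 and 7.65 and 7.35 in MEF. Only AG-haESC replicate 4 reached the range of the diploid arrays. The difference between AG-haESC and E14 was -0.75 ± 0.28 and did not pass (limma adjusted p = 0.0949). Nkd1, which acts on Dishevelled, read 4.80, 5.69, 4.56, 5.63 and 5.87 in AG-haESC, 6.42, 6.23 and 5.82 in E14 and 7.68 and 7.50 in MEF. Its AG-haESC values all lay below their array medians, and the difference of -0.85 ± 0.37 from E14 did not pass (limma adjusted p = 0.151).

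Lgr5, the R-spondin receptor that marks many epithelial stem cells, read 1.82, 3.37, 3.34, 2.52 and 1.79 in AG-haESC and 1.59, 5.49 and 5.66 in E14, all below the array medians. In MEF it read 9.47 and 8.72. No fold is given between the stem cell groups, since both lay below the medians, and E14 replicate 1 stood far below the other E14 arrays. Without that array the fitted difference of -1.68 became -3.0 and was called (limma adjusted p = 0.0176), between values that all lie in the background.

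Of the downstream transcription factors, Sp5 read 5.61, 5.15, 6.00, 6.17 and 5.95 in AG-haESC, 6.20, 6.12 and 8.19 in E14 and 2.61 and 1.55 in MEF. E14 replicate 3 alone stood clear of the array medians, and the other stem cell arrays lay near or below theirs. The difference of -1.06 ± 0.54 between AG-haESC and E14 did not pass (limma adjusted p = 0.207), and it was -0.39 without E14 replicate 3. Cdx1, a homeobox factor of posterior patterning, read 5.48, 6.75, 6.60, 6.67 and 6.48 in AG-haESC, 5.96, 6.13 and 5.41 in E14 and 2.04 and 4.44 in MEF. Replicate 1 lay among the E14 arrays and the other haploid lines above them, with a difference of 0.56 ± 0.54 (limma adjusted p = 0.517).

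Probe sets of the same gene were then set side by side, in a fit over all 27505 kept probe sets, where 7.26% were called for AG-haESC against E14, 4.37% higher and 2.89% lower. Of the 20 kept member probe sets 5 were called higher and 1 was called lower. All 5 kept probe sets of Apcdd1 had a positive difference, from 0.87 to 1.67, with no overlap between AG-haESC and E14 in any of them, and 3 were called. The brightest, used for the gene, had the largest difference (3.18-fold), and the other called ones were each 2.31-fold higher. For Tcf7l2, 2 of 3 kept probe sets were called, at 1.01 and 1.14, and the dimmest kept one differed by 0.35 ± 0.40 (limma adjusted p = 0.622). Both Tcf7l1 probe sets stood higher in AG-haESC without overlap, by 0.67 and 0.42, the second with limma adjusted p = 0.0945. The dimmer Lef1 probe set differed by -0.76 ± 0.39 with overlapping arrays (limma adjusted p = 0.23), against -1.53 for the brighter. For Nkd1 the remaining kept probe sets differed by -0.17, -0.16 and -0.14, all nearer to 0 than the -0.85 of the brightest. Probe sets of a gene share its RNA and some may share target sequence, so they are not replicates.

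**Figure D2:**
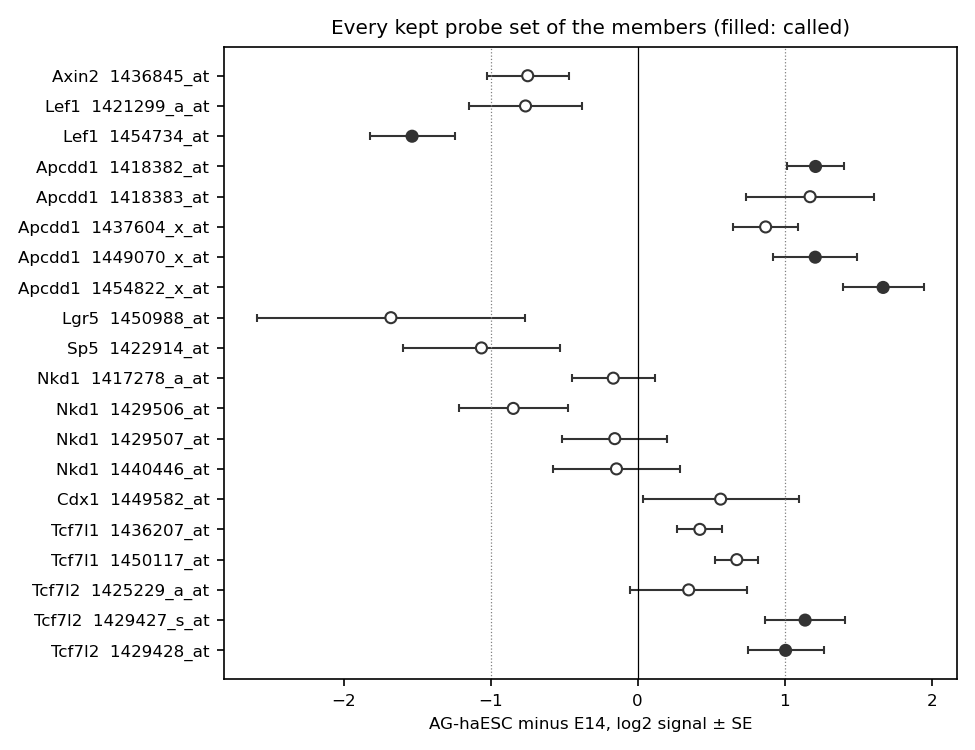
Difference AG-haESC minus E14 in log2 signal ± SE (horizontal axis) for each of the 20 kept probe sets of the members (vertical axis), with filled points called and dotted lines at 2-fold. The 5 Apcdd1 probe sets all lie to the right of 0, from 0.87 to 1.67, and both Lef1 probe sets lie to the left.

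Against the fibroblasts, the haploid lines had higher Sp5, Cdx1 and Tcf7l1 and lower Lgr5, Nkd1 and Tcf7l2. Tcf7l1 was 2.78-fold higher and Tcf7l2 2.55-fold lower, so that these related factors went opposite ways. Lgr5 was at least 8.81-fold lower, Nkd1 at least 3.10-fold lower and Cdx1 at least 1.33-fold higher. Lgr5 passed the filter on low signals only through the MEF arrays, and Sp5 and Cdx1 only through stem cell arrays, so that the filter set the direction of these genes against MEF. Of the 9 genes 3 were thus higher and 3 lower, where 42.2% of all genes were called, 19.7% higher and 22.5% lower. The median difference of the 9 genes was 0.63, against 0.0045 over all genes. The arrays of both groups did not overlap for these 6 genes, 3 in each direction, against 70.3% of all genes, 34.6% higher and 35.7% lower.

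The difference was 1.47 ± 0.17 for Tcf7l1 (limma adjusted p = 1.5e-05) and -1.35 ± 0.30 for Tcf7l2 (0.00207), with no overlap of arrays in either gene. With the mean of probe sets both fell short of 2-fold, at 0.98 and -0.92. Sp5 differed by 3.70 ± 0.62 (limma adjusted p = 0.000313), but its AG-haESC mean of 5.78 ± 0.41 lay below the medians of the MEF arrays, so no fold is given. With signals below the median set to the median, Sp5 and Cdx1 differed by 0.034 and 0.48 and were not called. Lef1, Apcdd1 and Axin2 differed by 0.64 ± 0.33, 0.63 ± 0.32 and -0.62 ± 0.32, and none of them passed (limma adjusted p = 0.116, 0.107 and 0.117). By the adjusted p alone 59.8% of all genes passed. On the probe set level 4 of the 20 kept members were higher and 4 lower, against 39.2% of all probe sets called, 19.2% higher and 20% lower. Among the higher ones was the dimmer Lef1 probe set, by 1.35 ± 0.44 (limma adjusted p = 0.0228). Apart from the brightest, the kept Nkd1 probe sets differed by -1.45 (called), -0.73 and 0.12. The last 2 were not called (limma adjusted p = 0.154 and 0.857). The Nkd1 call was lost without AG-haESC replicate 4, E14 replicate 1, E14 replicate 3, MEF replicate 1 or MEF replicate 2, because another of its probe sets, almost as bright, then became the brightest. With the probe set held, the Nkd1 difference lay between -2.42 and -2.09 and was called each time.

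In the comparison of E14 with the fibroblasts, Lef1, Sp5 and Cdx1 were higher in E14, and Tcf7l2, Lgr5, Nkd1 and Apcdd1 were lower. Lef1 was 4.51-fold higher, Tcf7l2 5.11-fold lower, Nkd1 2.70-fold lower and Apcdd1 2.06-fold lower. Lgr5 was at least 8.33-fold lower and Sp5 at least 1.81-fold higher, and no fold is given for Cdx1, since the E14 mean lay below the MEF array medians. With 3 of 9 genes higher and 4 lower, the background is 42.1% of all genes called, 20.9% higher and 21.3% lower. The median difference of the 9 genes was 0.13, against 0.080 over all genes. The arrays did not overlap for 8 of the 9 genes, all but Axin2, 4 in each direction, against 73.9% of all genes, 38.2% higher and 35.7% lower. Of the kept probe sets 4 were higher and 6 lower, against 38.9% of all probe sets called, 19.8% higher and 19.1% lower.

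Lef1 differed by 2.17 ± 0.36 (limma adjusted p = 0.000342) and Tcf7l2 by -2.35 ± 0.32 (8.3e-05), and both differences stayed called without any 1 array. Tcf7l1, at 0.80 ± 0.18, fell short of 2-fold although its limma adjusted p was 0.00277, a threshold that 57.3% of all genes passed. Axin2 differed by 0.13 ± 0.35 (limma adjusted p = 0.776), the smallest difference of the 9 genes in this comparison. Apcdd1 lay just past the threshold at -1.04 ± 0.34 (limma adjusted p = 0.0222), and the call ended when E14 replicate 3 (-0.86) or MEF replicate 2 (-0.87) was left out, and with a pseudocount (-0.94), quantile normalization (-0.84), the mean of probe sets (-0.85) and array weights (-0.87). Sp5 and Cdx1 were no longer called, at 0.85 and 0.073, with signals below the median set to the median, and Cdx1 also lost its call without MEF replicate 1. Apart from the brightest, the kept Nkd1 probe sets differed by -1.28 (called), -0.57 and 0.26 (both not called). Nkd1 lost its call with the mean of probe sets (-0.76, limma adjusted p = 0.0897), and without AG-haESC replicate 4 or E14 replicate 1, where its brightest probe set changed. It also lost it without E14 replicate 3, MEF replicate 1 or MEF replicate 2, there also with its probe set held (limma adjusted p = 0.0506, 0.108 and 0.075).

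**Figure D3:**
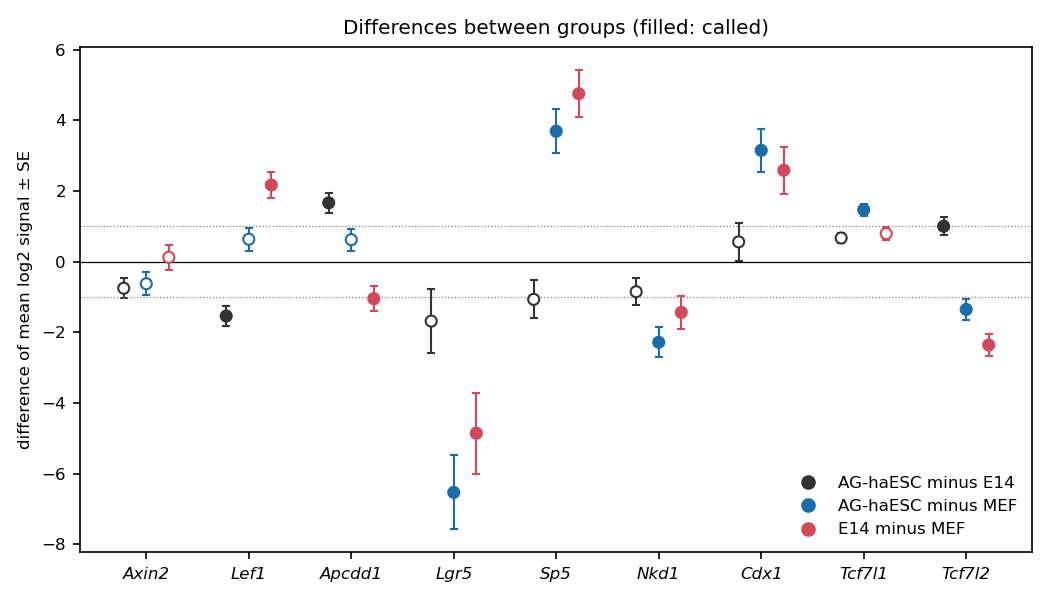
Differences of mean log2 signal ± SE (vertical axis) for the 9 member genes (horizontal axis) in the 3 comparisons, with filled points called and dotted lines at 2-fold. Lef1 is called in both comparisons that hold E14, Axin2 is called in none, and Tcf7l2 is called in all of them. The comparisons share arrays and are not independent.

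By gene, the order of the group means was E14, AG-haESC, MEF for Lef1 and Sp5, AG-haESC, E14, MEF for Tcf7l1 and Cdx1, and MEF, AG-haESC, E14 for Tcf7l2. It was MEF, E14, AG-haESC for Lgr5 and Nkd1, AG-haESC, MEF, E14 for Apcdd1, and E14, MEF, AG-haESC for Axin2. Tcf7l2 was the gene of the 9 in which both neighbouring pairs of that order were called. For Axin2 no pair was called, and for Tcf7l1 both neighbouring pairs passed the adjusted p below 2-fold.

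The haploid lines also differed among themselves. AG-haESC replicate 4, of the lowest passage, 12, was the lowest line for all 5 kept Apcdd1 probe sets and both Tcf7l1 probe sets, and the highest for Axin2, Sp5 and the dimmer Lef1 probe set. Over the 20 kept probe sets it was lowest in 9 and highest in 5. Over the 9 probe sets used for a gene it was lowest in 2 and highest in 2. AG-haESC replicate 3, the Actin-EGFP line, was lowest in 6 of the 20, among them Axin2 and both Lef1 probe sets, and highest in 2. Of the 9 it was lowest in 4 and highest in 0. These shares were not counted over all probe sets of the array. The range over lines was 1.39 for Lef1, 1.32 for Apcdd1 and 1.14 for Axin2, against 0.20, 0.59 and 0.25 over the 3 arrays of E14. Lgr5 and Sp5 went the other way, at 1.58 and 1.02 over lines against 4.06 and 2.06 over E14. A range over 5 arrays also tends to be wider than one over 3. A line and its array cannot be told apart here, since each line was measured once, and no test was made.

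Other genes of the pathway were counted in lists by role, and for AG-haESC against E14 these counts stand beside 4.58% of all genes higher and 3.74% lower. Of 14 tested ligands, secretion factors and R-spondins, 1 was higher and 0 were lower. That gene, Wls, which carries WNT proteins to the cell surface, read 9.15, 9.30, 9.10, 8.86 and 9.34 in AG-haESC, 7.89, 7.74 and 6.34 in E14 and 13.30 and 13.23 in MEF. It differed from E14 by 1.83 ± 0.30 (limma adjusted p = 0.00222). Of 17 receptors and co-receptors 1 was lower and 0 were higher, namely Fzd7, a Frizzled receptor, at 9.66 ± 0.47 against 11.12 ± 0.039, a difference of -1.45 ± 0.23 (limma adjusted p = 0.00177). The median difference of the receptors was -0.50, against -0.082 over all genes.

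Of 13 tested antagonists and related genes 2 were higher and 1 was lower in AG-haESC. Sfrp1, a secreted Frizzled-related inhibitor, was at 10.34 ± 0.32 against 7.86 ± 0.41 (difference 2.49 ± 0.22, limma adjusted p = 5.15e-05), while its relative Sfrp2 was at 7.66 ± 0.55 against 9.74 ± 0.50 (difference -2.09 ± 0.32, limma adjusted p = 0.00139). Dkkl1, a Dickkopf-like gene, was at least 2.24-fold higher (limma adjusted p = 0.0108). It passed the filter on low signals only through AG-haESC arrays, so that the filter set its direction. Of 16 genes for beta-catenin and its destruction machinery and of 14 nuclear cofactors of TCF, 0 were called by limma, while 2 and 4 passed the adjusted p alone and so also an unadjusted p under 0.05. Of 9 other WNT targets 1 was lower, the cyclin Ccnd1, at 9.63 ± 0.50 against 11.53 ± 0.68, a difference of -1.90 ± 0.32 (limma adjusted p = 0.00266).

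Against the fibroblasts the list counts stand beside 22.5% of all genes lower and 19.7% higher for AG-haESC, and 21.3% lower and 20.9% higher for E14. For AG-haESC 6 ligand and secretion genes were lower and 1 was higher, and the counts for E14 were the same. Of the 6 lower genes 4 (Rspo3, Wnt16, Wnt5a and Wnt5b) passed the filter on low signals only with the help of the MEF arrays, so that their direction was set by the filter. The same holds for 2 of the lower antagonists in AG-haESC and 3 in E14, for 2 and 1 of the lower receptors, and for 1 of the lower nuclear cofactors in either. Conversely, the higher genes Fzd9, Dkkl1 and Ascl2 lay below the array median in both MEF arrays and passed the filter only through stem cell arrays. The filter thus set the direction of these genes as well. Wnt5a was at least 44.9-fold lower in AG-haESC and Rspo3, an R-spondin, at least 48.4-fold, while Porcn, the acyltransferase of WNT proteins, was higher by 2.30 ± 0.20 (limma adjusted p = 2.48e-06). Of the 17 receptors 11 were lower and 1 was higher in AG-haESC, and 9 were lower and 3 higher in E14. Fzd1 differed by -5.57 ± 0.36 in AG-haESC and by -4.94 ± 0.40 in E14. Fzd5 was higher in E14 by 1.82 ± 0.30 (limma adjusted p = 0.000317). Without MEF replicate 1 or MEF replicate 2 the count of lower ligand genes was 2 in AG-haESC and 3 in E14, but 3 of the 6 (Rspo3, Wnt16 and Wnt5b) then no longer passed the filter and were not tested.

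Of the 13 antagonists and related genes 6 were lower and 2 higher in AG-haESC, and 7 were lower and 1 higher in E14. Without MEF replicate 1 there were 3 lower in each, and without MEF replicate 2 there were 4 in AG-haESC and 2 in E14, where 2 of the lower genes in AG-haESC and 3 in E14 were no longer tested. Dkk2, a Dickkopf antagonist, was at least 39.4-fold lower in AG-haESC and at least 37.3-fold lower in E14. Notum, a lipase that inactivates WNT proteins and is itself a WNT target, was higher in AG-haESC by 1.80 ± 0.56 (limma adjusted p = 0.0155), and this call was lost without MEF replicate 2 (0.151). Nuclear cofactors were lower for 5 of 14 and higher for 2 in AG-haESC, with the co-repressor gene Tle4 higher by 2.63 ± 0.30. The counts were 4 and 2 in E14. Without MEF replicate 1 they were 3 lower in AG-haESC and 2 in E14, and without MEF replicate 2 they were 4 and 2, with Tle2 no longer tested in either case. Of the 16 genes of the destruction machinery 3 were lower and 0 higher in either stem cell group. Of the 9 other targets 4 were lower and 3 higher in AG-haESC, and 3 were lower and 2 higher in E14. Without MEF replicate 2 these were 4 lower and 1 higher in AG-haESC, where Notum and Tnfrsf19 lost their calls, and 1 lower and 0 higher in E14 by limma, where Myc, Nkd2, Notum and Ascl2 lost theirs. Ascl2 lost its call in E14 whichever single array was left out, E14 replicate 3 excepted (limma adjusted p between 0.053 and 0.179). Myc was lower in AG-haESC by -5.20 ± 1.07 (limma adjusted p = 0.00139), and Ascl2, a target in intestinal stem cells, was at least 3.78-fold higher. All 6 genes known as repressed by TCF7L1 were higher in both stem cell groups than in MEF, with medians of 7.93 and 7.61. These are also genes of the pluripotent state, and Nanog and Esrrb are among its markers above. Except for Klf2, the 6 genes lay below the array median in both MEF arrays. They passed the filter on low signals only through stem cell arrays, so that the filter set their direction.

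**Figure D4:**
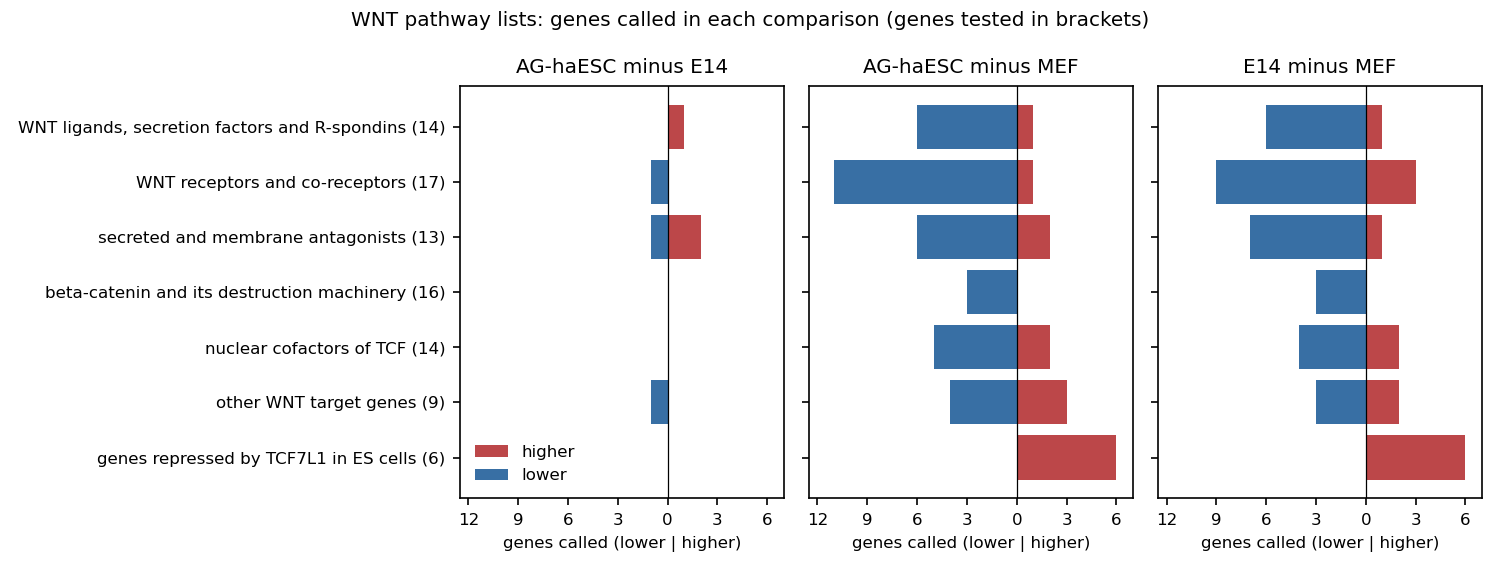
Numbers of genes called lower (bars to the left) and higher (bars to the right) in 7 pathway lists (vertical axis, genes tested in brackets) for the 3 comparisons. Between AG-haESC and E14 at most 2 genes of a list were called in a direction, and against MEF the receptors had 11 and 9 genes lower.

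Markers of fibroblasts moved with part of these results. Of 11 fibroblast markers 6 were higher and 0 lower in AG-haESC than in E14, and their summed signal was 2277 to 8112 in AG-haESC, 1024 to 1815 in E14 and 126873 to 150540 in MEF. Between 9 and 11 of them lay above the array median in AG-haESC arrays, and 4 to 6 in E14. Tcf7l2 and Wls, both highest in MEF, stood higher in AG-haESC than in E14, as did these markers. Within AG-haESC the mean marker level ran from 6.73 in replicate 1 to 8.60 in replicate 2. Replicate 1, next to E14 replicate 3 at 6.69, had the highest Apcdd1 (9.91) and the second highest Tcf7l2 (8.98) of the lines, and its Wls (9.15) lay above every E14 array. Replicate 4, at a marker level of 6.96, went the other way, with the lowest Apcdd1 (8.59) and Wls (8.86) of the lines and a Tcf7l2 of 8.23. Lgr5, at 9.47 and 8.72 in MEF, lay below the array median in every AG-haESC array. Sfrp1 read 10.85, 10.18, 10.05, 10.18 and 10.46 in AG-haESC and 10.12 and 10.19 in MEF. Beyond these values, the part of fibroblast RNA in the differences of Tcf7l2, Wls and Sfrp1 was not tested.

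**Figure D5:**
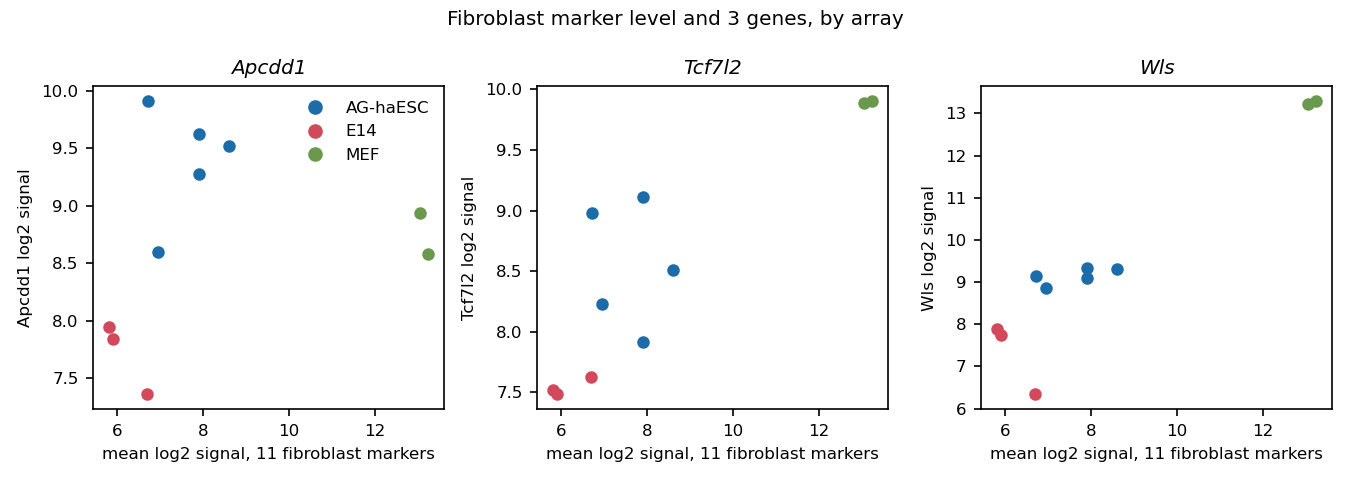
Log2 signal of Apcdd1, Tcf7l2 and Wls (vertical axes) against the mean log2 signal of 11 fibroblast markers (horizontal axis), with 1 point per array. AG-haESC replicate 1, at a marker level of 6.73, has an Apcdd1 of 9.91, above the MEF arrays, and a Tcf7l2 of 8.98. AG-haESC replicate 4, at a marker level of 6.96, has an Apcdd1 of 8.59 and a Tcf7l2 of 8.23.

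Of other lineages, 1 of 5 trophectoderm markers (Gata3) was higher in AG-haESC than in E14, with mean levels over the list of 8.63 to 9.78 against 6.84 to 7.94. Endoderm markers had 1 of 6 higher (Afp), with levels of 6.20 to 6.73 against 5.21 to 5.62. Neural markers had 1 of 6 higher (Olig2), and levels of 6.36 to 7.27 against 6.31 to 7.43 overlapped. Markers of the primitive streak and mesoderm, where WNT signalling acts in the embryo, overlapped as well, at 5.68 to 6.18 against 5.47 to 6.39, with 1 of 5 higher (Gsc) and 1 lower (Fgf8). Afp and Olig2 passed the filter on low signals only through AG-haESC arrays, and Fgf8 only through E14 arrays, so that the filter set their direction. Macrophage markers, with 1 of 7 higher (Cd14), lay at 4.86 to 5.85 in AG-haESC, 4.43 to 5.69 in E14 and 8.67 to 8.84 in MEF. The part of these cell types in the results was not tested.

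The genes whose pattern over the 10 arrays was most like that of a member were found by the root mean square difference of log2 signals, each gene centred on its own mean. For Axin2 they were Llgl1 (0.17), Ptgdr (0.22) and Adhfe1 (0.23), against a median of 0.73 over all genes. For Lef1 they were Ppef2 (0.27), Rab26os (0.29) and Trim63 (0.32), against 1.03, and for Tcf7l1 they were Exosc9 (0.14), Ofd1 (0.15) and Mrps24 (0.16), against 0.81. No other member and no gene of the pathway lists was among them.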

How the data were processed

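RNA of 10 arrays of sorted mouse cells (5 AG-haESC, 3 E14, 2 MEF) was labelled with a 3' kit per the labels' protocols. The authors deposited 1 signal intensity for each probe set, on a linear scale, made with MAS5 per the submitters' processing notes. The 2% trimmed mean was 500 in every array, so values are relative within an array and a change in total RNA per cell cannot be seen. Detection calls were not used here. The number of arrays limits the precision.

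Signals were taken to log2 without a pseudocount. Of 45101 probe sets 64 controls were removed and 34945 paired with 1 gene symbol, which was updated through the gene table of GRCm38.p6. Those above the array median in at least 2 arrays were kept (27505), and the brightest kept probe set per gene was used. Genes were tested in 1 limma 3.58.1 fit (R 4.3.3) of 3 group means over 10 arrays, with 7 residual degrees of freedom, a variance trend, two-sided p-values and Benjamini-Hochberg adjustment over 13251 genes per comparison. The fit was tested on simulated data. Named genes are all members, up to 3 called genes per direction of each pathway list, and the 3 genes most like Axin2, Lef1 and Tcf7l1. Not every gene the rule allows is printed. Outside it, genes of the TCF7L1 list, called markers of other cell types, and genes of the pathway lists that lost a call or a test were named after their values were seen. Promoter sequences are from RefSeq. Alternatives were a pseudocount, a floor, quantile normalization, no filter, the mean of probe sets, 2-group fits, array weights, a replicate block and leaving out each array. Members and lists were chosen with earlier results of these data known.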

Additional observations from a re-analysis of the deposited data

Results flagged for a closer look

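Of 63 groups of AG-haESC values, 1 for each member probe set and each other pathway gene named by the rule, 5 held an array far from the others. The gap to its nearest neighbour, divided by the whole range, passed Dixon's critical value of 0.71 for 5 arrays. Chance gives such a gap in about 1 of 20 groups. Lef1 read 7.09 in AG-haESC replicate 3, the Actin-EGFP line, where the other lines read from 8.20 to 8.48. Cdx1 read 5.48 in AG-haESC replicate 1, against 6.48 to 6.75. AG-haESC replicate 1 also stood apart for the antagonist Frzb, at 2.88 against 4.68 to 5.34, all below the array medians, and for the co-repressor Ctbp1, at 11.06 against 10.91 to 10.95. Bcl9l, a beta-catenin cofactor, read 7.87 in AG-haESC replicate 2, against 7.34 to 7.48.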

How the results depend on the processing

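For AG-haESC against E14, 1 member was called higher with a pseudocount of 32 or with the mean of probe sets, and 3 member probe sets with that pseudocount. Array weights gave 2 members, 2 member probe sets and 870 genes lower, and the added member, Nkd1, was at -1.06. With a floor at the array median, 1 member and 1 member probe set were higher than MEF in AG-haESC, and likewise in E14. With the mean of probe sets 2 members were lower in E14 than in MEF. Leaving out each array, the counts for AG-haESC against E14 were 1 to 2 members higher and 1 to 2 lower, 2 to 5 probe sets higher and 1 to 2 lower, and 495 to 677 genes higher and 297 to 664 lower. The 297 and a further count of 324 came without E14 replicate 2 and without E14 replicate 1. Against MEF, AG-haESC had 3 members higher throughout and 1 to 3 lower, and 3 to 4 probe sets higher and 2 to 5 lower. E14 had 2 to 3 members higher and 1 to 4 lower, and 3 to 4 probe sets higher and 2 to 8 lower. Without MEF replicate 1 or 2, 1 member was lower in AG-haESC, and in E14 2 and 1, but Lgr5 then failed the filter and was not tested. With its probe set held Lgr5 was still called in both comparisons (-6.90 and -6.15 in AG-haESC). Uncalled differences changed sign for Nkd1 against E14 (-0.99 to 0.050, the latter without AG-haESC replicate 4, where its probe set changed) and for Axin2 in E14 against MEF (-0.023 to 0.28, the former without MEF replicate 2). Holding the probe set when an array is left out was chosen after seeing the data. Over single members and settings other than leaving out an array, 183 values kept their sign and their side of the threshold, 14 lost a call and 1 gained one. With an array left out the counts were 244, 17 and 1, and 2 changed sign.

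E14 and MEF share replicate numbers, which the labels do not tie to a common origin. The differences between replicates 1 and 2 of E14 and of MEF correlated at -0.026 across 13251 genes, which are not independent replicates. With the replicate block 3 members were higher and 3 lower, and the Apcdd1 difference was -0.86 (limma adjusted p = 0.0105), below 2-fold. The counts of all genes were 2801 and 2813.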
